A study of Homo sapiens with 16 samples.

Results

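The long arm of chromosome 7 was represented by 536 genes out of 18417 genes that had a row of their own on the array. They were taken by position, as genes of chromosome 7 whose start lies beyond 60.1 Mb in GRCh38, after 20 genes listed by name had been set aside from the 556 found there. Of these 536 genes, 364 were bright enough to be tested, together with 12978 genes of the whole array and 215 of the 277 genes of the short arm. The chromosome itself was picked because earlier results of these data showed its genes to be high in STAG2-deficient H4 cells, so every H4 value here is a description of that choice and supports nothing. The 42MGBA and HCT116 arrays had no part in the choice. By annotation, 491 of the 536 genes were protein-coding, 16 were transcribed pseudogenes, 13 were long noncoding RNAs and 10 were microRNA genes.

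STAG2, on the X chromosome, encodes part of cohesin, a ring-shaped complex that keeps sister chromatids joined and shapes chromatin loops. The study set human cancer cells with and without STAG2 side by side on Affymetrix Human Gene 1.0 ST arrays, 1 array per clone, 16 in all, from untreated cells growing in DMEM with serum. H4 and 42MGBA, both labelled glioblastoma, are STAG2 mutant lines. H4 deficient cells were parental cells and non-recombinant clones 10 and 12, and H4 corrected cells were the STAG2 knock-in clones 8-1, 8-3 and 88-1 after Cre, the recombinase that cuts out a flanked cassette. 42MGBA deficient cells were the parental line and the knock-in clones 53 and 92 before Cre, and 42MGBA corrected cells were their offspring after Cre, 53-1, 53-7 and 92-6. HCT116, a colorectal cancer line, gave the non-recombinant STAG2 wild-type clones 24 and 27 and the STAG2 knockout clones 7 and 21. No H4 deficient array was a recombinant clone, so in H4 STAG2 status cannot be told apart from recombination, Cre and clone lineage. The same holds for recombination and lineage in HCT116. Clones 8-1 and 8-3, and clones 53-1 and 53-7, come by their names from 1 parent clone each. The p-values below therefore measure the spread between these clones only, pooled for each gene over the 6 groups of all 3 lines. An SE or p-value for 1 line thus also draws on the other lines, and the small number of arrays limits the precision.

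STAG2 itself stood at a mean log2 level of 6.72 ± 0.21 (SD, n = 3) in H4 deficient and 8.91 ± 0.04 (SD, n = 3) in H4 corrected arrays. In HCT116 it was 9.29 ± 0.01 (SD, n = 2) in wild-type and 6.85 ± 0.41 (SD, n = 2) in knockout clones. The 42MGBA arrays did not separate by label, with 4.75, 5.34 and 5.60 in those labelled deficient and 5.65, 5.41 and 5.53 in those labelled corrected. The 42MGBA arrays also lie on a lower scale, with array medians of 5.0 to 5.05 against 6.23 to 6.30 in H4 and HCT116, so no 42MGBA level is set against a level in H4 or HCT116. Arrays of 1 line correlated at r = 0.957 to 0.994 over the tested genes. Of 10 epithelial markers, 7 lay above the array median in HCT116 and 5 in each of the other lines. Of the 5 mesenchymal markers, VIM, FN1, CDH2 and SPARC lay above it in H4 and 42MGBA and below it in HCT116, and CD44 lay above it in all 3 lines. Of the glial and neural markers, GFAP, OLIG2, SOX2 and S100B were below the median in all 3 lines, and NES was above it in 42MGBA and HCT116 and below it in H4. In HCT116 the intestinal markers KRT20, VIL1 and LGALS4 were below the median and CDX1 and CDX2 above it, but CDX1 and CDX2 were above it in H4 and 42MGBA too.

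The long arm of chromosome 7 holds genes of unrelated roles. Near the centromere lies the Williams-Beuren region, whose loss from 1 homologue causes a developmental syndrome of vessels, heart and behaviour, and further out lie genes for secreted guidance cues, growth factors, chromatin enzymes and bitter taste and odour receptors. When many neighbouring genes of unrelated roles shift together by a small amount, the shift is seen in the median over the arm before it is seen in any single gene. Gain of chromosome 7 is a frequent change in glioblastoma. The number of DNA copies was not measured in this study, so its part in any difference below was not tested.

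The promoters of 4 members are shown because SEMA3D, ORAI2 and STRIP2 were among the members with the largest differences in H4, and LIMK1 was the 1 member whose H4 and 42MGBA differences differed past the threshold. SEMA3D encodes a secreted semaphorin, ORAI2 a store-operated calcium channel protein, STRIP2 a member of striatin-interacting phosphatase and kinase complexes, and LIMK1 a kinase that acts on cofilin and so on actin. Sequences are RefSeq, build GRCh38.p14, from 250 bases before to 50 bases after the start of the gene, 5' to 3' on the gene's own strand. Capitals mark the GC box GGGCGG and the CCAAT box, each read on both strands. Positions are chr7:85187007-85187306, minus strand, for SEMA3D, chr7:102433325-102433624, plus strand, for ORAI2, chr7:129434182-129434481, plus strand, for STRIP2, and chr7:74083554-74083853, plus strand, for LIMK1.
SEMA3D: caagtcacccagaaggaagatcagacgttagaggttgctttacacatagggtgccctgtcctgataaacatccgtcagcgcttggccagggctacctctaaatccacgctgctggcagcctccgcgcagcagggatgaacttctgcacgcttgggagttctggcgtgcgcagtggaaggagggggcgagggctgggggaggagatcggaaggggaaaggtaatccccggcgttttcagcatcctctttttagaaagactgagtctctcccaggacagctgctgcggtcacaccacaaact
ORAI2: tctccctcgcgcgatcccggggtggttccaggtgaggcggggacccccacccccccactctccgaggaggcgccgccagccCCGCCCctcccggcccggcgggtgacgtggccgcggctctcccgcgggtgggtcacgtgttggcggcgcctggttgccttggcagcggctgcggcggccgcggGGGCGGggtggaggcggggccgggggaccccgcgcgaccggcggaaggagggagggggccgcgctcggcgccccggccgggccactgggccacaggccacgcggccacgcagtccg
STRIP2: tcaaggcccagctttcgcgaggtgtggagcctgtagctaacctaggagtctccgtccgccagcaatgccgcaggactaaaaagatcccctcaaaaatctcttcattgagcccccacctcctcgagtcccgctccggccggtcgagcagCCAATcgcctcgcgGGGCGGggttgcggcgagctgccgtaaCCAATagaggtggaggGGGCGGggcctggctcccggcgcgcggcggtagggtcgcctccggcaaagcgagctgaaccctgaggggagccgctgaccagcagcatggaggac
LIMK1: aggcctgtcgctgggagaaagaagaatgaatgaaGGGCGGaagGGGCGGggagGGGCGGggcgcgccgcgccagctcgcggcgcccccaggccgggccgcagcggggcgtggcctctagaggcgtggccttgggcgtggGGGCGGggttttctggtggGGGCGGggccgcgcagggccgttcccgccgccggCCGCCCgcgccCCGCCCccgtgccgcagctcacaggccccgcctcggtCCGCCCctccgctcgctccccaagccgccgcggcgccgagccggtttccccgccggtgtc
The SEMA3D window holds neither box and has 57.0% G and C. ORAI2 has 2 GC boxes, STRIP2 has 2 GC boxes and 2 CCAAT boxes, and LIMK1 has 8 GC boxes. None of the 4 windows holds TATAAA on either strand or the core of the CTCF motif.

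The same letters were counted over the 27305 windows of the RefSeq table, the 448 windows of all members and the 309 of the tested members, which are the brighter ones. GGGCGG on either strand was in 44.6% of all windows, 58.9% of all members' and 70.6% of tested members' windows, and CCAAT in 35.7%, 36.8% and 36.6%. TATAAA was in 12%, 6.7% and 4.53%, and the CTCF core in 0.527%, 0.67% and 0.647%. No set of all genes as bright as the tested members was counted. Matches that overlap each other, of 1 motif or of different ones, were all counted. Among the 29 members with a window that were past the threshold in H4, 82.8% held GGGCGG, against 69.3% of the 280 that were not. These are descriptions of letters in a window, and the members had been chosen on the H4 values.

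In H4, the long arm was high on each deficient array and low on each corrected array. The deviation of a gene is its log2 level on an array minus its mean over the arrays of the same line. The median deviation over the 364 members was 0.07 in the parental line, 0.14 in clone 10 and 0.10 in clone 12, and it was -0.11 in clone 8-1, -0.10 in clone 8-3 and -0.09 in clone 88-1. Each array averages the RNA of a whole culture, so a shift in all cells and a larger shift in some of them cannot be told apart. The groups did not overlap, with a mean of 0.11 ± 0.04 (SD, n = 3) against -0.10 ± 0.01 (SD, n = 3). On the deficient arrays 69.8% to 72.0% of the members were above their line mean, and on the corrected arrays 24.2% to 26.1%. The short arm stood at 0.03, 0.04 and -0.0012 on the deficient arrays and between -0.05 and -0.02 on the corrected ones. Medians of the other chromosomes lay between -0.06 and 0.06 on 5 of the 6 H4 arrays, and on clone 88-1 they reached -0.13, on chromosome 21.

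**Figure D1:**
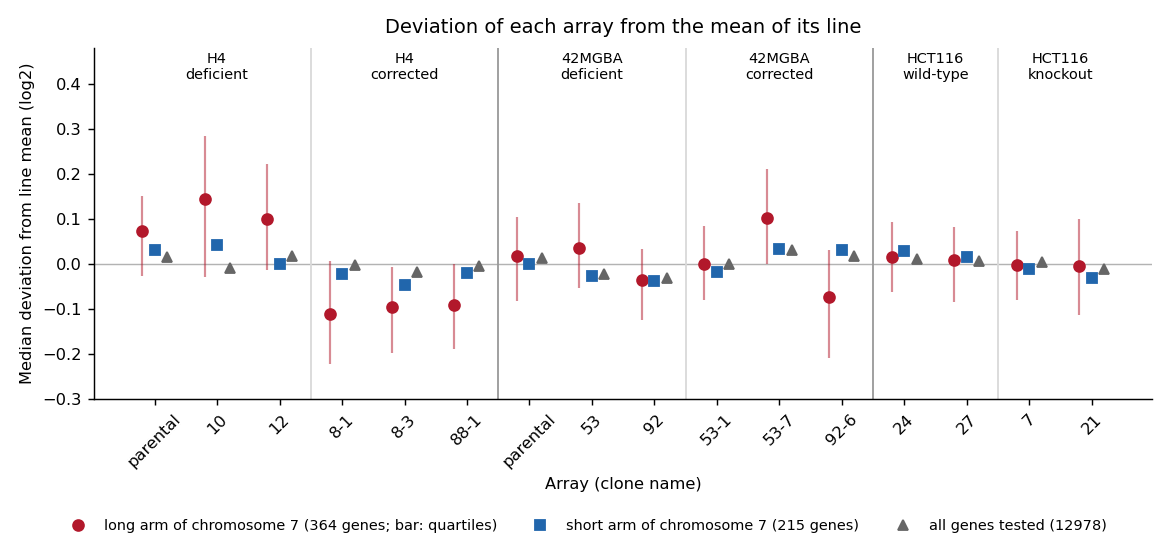
Median deviation from the line mean, in log2 units, for each of the 16 arrays: members on the long arm (circles, bars from the lower to the upper quartile), genes of the short arm (squares) and all tested genes (triangles). The H4 circles lie between 0.07 and 0.14 in deficient and between -0.11 and -0.09 in corrected arrays, and the largest circle outside H4 is clone 53-7 of 42MGBA at 0.10.

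The 2 other lines gave no split by label of that size and direction. In 42MGBA the medians were 0.02, 0.04 and -0.04 on the arrays labelled deficient and 0.0002, 0.10 and -0.07 on those labelled corrected (53-1, 53-7 and 92-6), with means of 0.01 ± 0.04 (SD, n = 3) and 0.01 ± 0.09 (SD, n = 3). Both extremes of the line were corrected clones. In HCT116 all 4 arrays stood within 0.02 of the line mean, at 0.02 and 0.01 in the wild-type and -0.0021 and -0.0044 in the knockout clones. These groups did not overlap, with the wild-type arrays slightly higher. All tested genes also stood higher in the wild-type clones, at 0.0103 and 0.0067 against 0.0032 and -0.0115.

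Along the arm, the H4 shift was present in most stretches. The tested members were put in order of position and split into 10 blocks of 36 or 37 neighbours. The median H4 difference, deficient minus corrected, was between 0.16 and 0.29 in 9 of the 10 blocks, and 30 to 34 members of each such block were above 0. The highest block ran from BHLHA15 to MEPCE with a median of 0.29 and the lowest from DENND11 to TMEM176A with 0.05, where 23 of 36 members were above 0. The array medians of the highest block were 0.05, 0.13 and 0.14 in deficient and -0.14, -0.09 and -0.12 in corrected clones. In the lowest block they were 0.08, 0.0049 and 0.05 against -0.0023, -0.03 and -0.03, so 2 of the 3 deficient arrays stood within 0.05 of the line mean there. That block is also the dimmest, with a median log2 level of 6.43 and 52.8% of its members in the lowest level tertile of all tested genes.

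**Figure D2:**
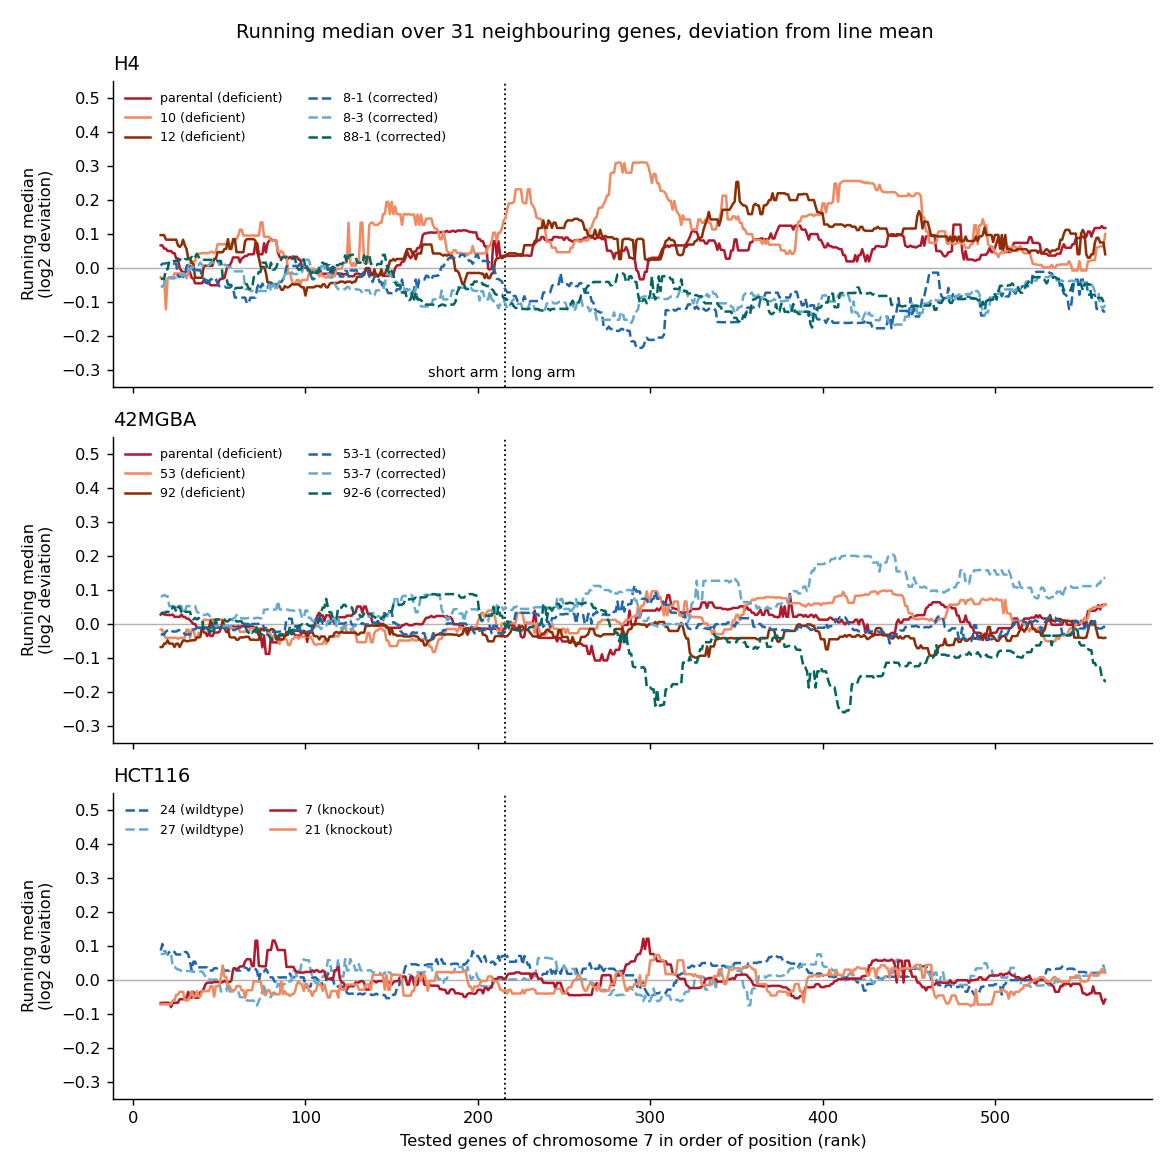
Running median over 31 neighbouring tested genes of chromosome 7 of the deviation from the line mean, in log2 units, against the rank of the gene along the chromosome, with 1 line per array and 1 panel per cell line. Solid lines are deficient or knockout arrays and broken lines corrected or wild-type arrays, and the dotted line separates the 215 genes of the short arm from the 364 of the long arm. In H4 the solid and broken lines lie apart along most of the long arm, and in 42MGBA clones 53-7 and 92-6 lie apart from each other. Part of the short arm also shows H4 deficient lines above clone 8-1. At rank 170 the parental line, clone 10 and clone 12 stand at 0.10, 0.15 and 0.07 and clone 8-1 at -0.02.

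The change at the centromere was not sharp in single genes. The last tested genes before the boundary were NUPR2, LOC401357 and ZNF716, with H4 differences of 0.06, 0.19 and 0.66. The first behind it were the zinc finger genes ZNF680, ZNF107 and ZNF138, with 0.37, 0.09 and 0.22. ZNF716, just outside the rule, was thus higher than the members just inside it. It also differed by 0.50 in 42MGBA, where the long arm did not split by label, and by 0.02 in HCT116. Of the 20 genes set aside, 17 were tested, with a median H4 difference of 0.18 and 14 above 0. The 172 members too dim to be tested had a median of 0.03, and 62.2% of them were above 0. The same was not worked out over all dim genes, so these values have no background to be read against.

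Gene by gene, the H4 difference was above 0 for 314 of the 364 members, 86.3% against 54.4% of all tested genes and 61.9% of the short arm. The median was 0.19 on the log2 scale, a fold of 1.14, with quartiles of 0.07 and 0.33, against 0.06 for the short arm and 0.02 for all genes. By limma at an adjusted p under 0.05, 33 members (9.07%) were higher in deficient cells, where 1.30% of all tested genes were, and 0 were lower, where 2.0% were. At an unadjusted p under 0.05, 123 members were higher, with 8.78% of all genes, and 6 lower, with 7.58%. The 2 groups of 3 arrays did not overlap, with the deficient arrays higher, for 144 members (39.6% against 12.1% of all genes), and with the deficient arrays lower for 3 members (0.824% against 8.68%). The members were chosen on this contrast, and nothing is read from these counts. The difference was larger for brighter members, with medians of 0.07, 0.20 and 0.29 in the low, middle and high tertile of level, where all genes had -0.0043, 0.02 and 0.04.

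The count of 33 moved with the arrays used, while the median stayed between 0.17 and 0.22 when any 1 H4 array was left out. Without clone 10 it was 17, without clone 12 it was 8, without clone 8-1 it was 16, without clone 8-3 it was 9, without clone 88-1 it was 15, and without the parental line it was 42. With clones 8-1 and 8-3 averaged into 1 sample it was 12. With only the 6 H4 arrays in the fit it was 3, namely FAM3C, ORAI2 and PLOD3. BCAP29, FIS1, LIMK1, ORAI2, SEMA3D, STRIP2 and TMUB1 were past the threshold whichever H4 array was left out. Over all the alternatives run, 1 of the 33 calls was kept throughout.

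The largest H4 difference was that of SEMA3D. SEMA3D, the semaphorin whose promoter is shown above, had log2 levels of 9.61, 10.69 and 9.42 in deficient and 8.03, 8.06 and 8.23 in corrected arrays. Its difference was 1.80 (SE 0.23), a fold of 3.48, and clone 10 stood above the 2 other deficient arrays. That SE pools all 3 lines, while the SD was 0.68 in H4 deficient and 0.11 in H4 corrected arrays. With only the H4 arrays in the fit, SEMA3D was not past the threshold. SEMA3D was near the bottom of the scale in the other lines, at 3.06 to 3.48 in 42MGBA and 4.60 to 4.75 in HCT116. ORAI2, the calcium channel protein, had 8.66, 8.75 and 8.49 against 7.92, 7.70 and 7.71, a difference of 0.86 (SE 0.16). STRIP2 had 7.21, 7.40 and 7.59 against 6.67, 6.56 and 6.74, a difference of 0.75 (SE 0.10). For ORAI2 and STRIP2 every deficient array was above every corrected one, and the HCT116 arrays of STRIP2, at 7.31 to 7.47, stood at the level of H4 deficient cells.

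**Figure D3:**
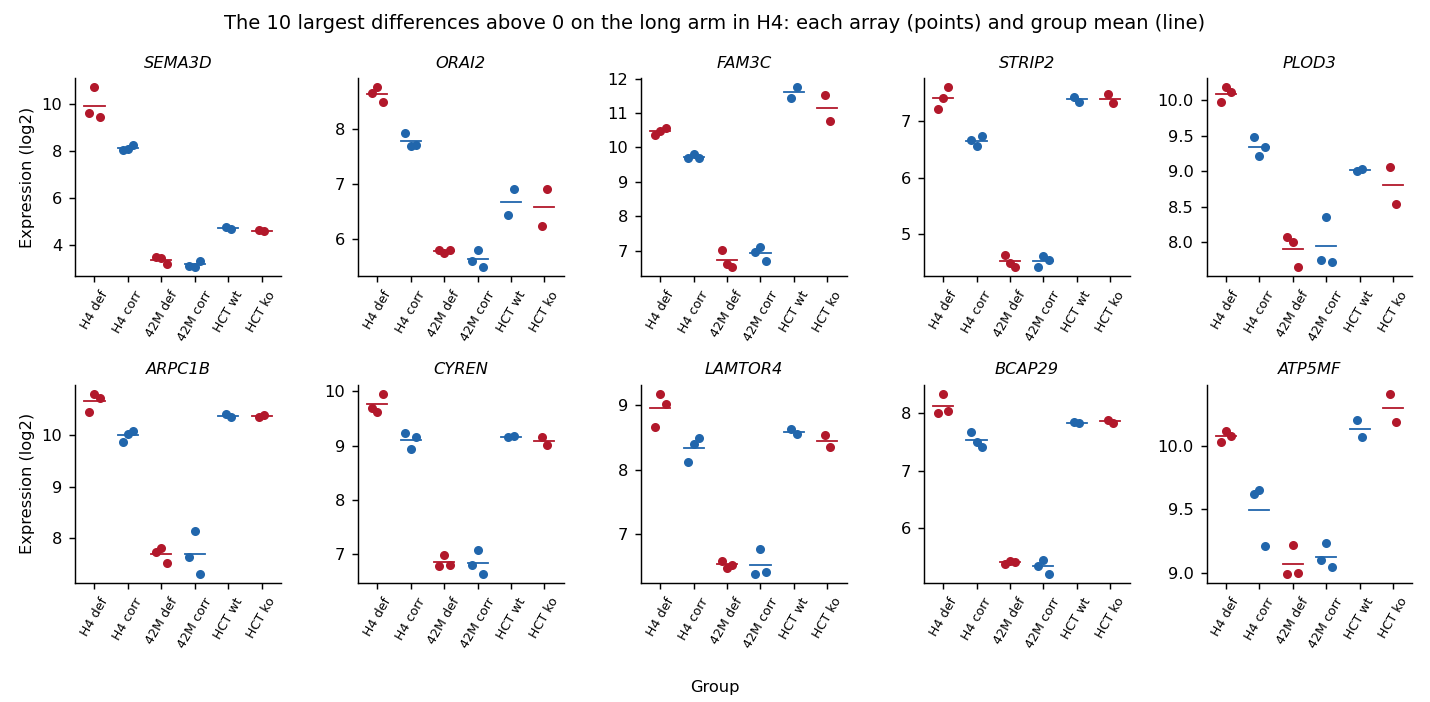
Log2 expression of the 10 members with the largest H4 differences past the threshold: each point is 1 array and each line the mean of a group (deficient and knockout red, corrected and wild-type blue, 42M for 42MGBA and HCT for HCT116). In each panel the 3 H4 deficient points lie above the 3 H4 corrected points, and the 42MGBA values lie on a lower scale.

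FAM3C, PLOD3 and ARPC1B also lay among the 10 largest. FAM3C, a secreted cytokine-like protein, had 10.37, 10.48 and 10.57 in deficient and 9.68, 9.79 and 9.70 in corrected arrays, a difference of 0.75 (SE 0.17). A second row given to FAM3C on the array differed by 0.76, and since near-identical copies could share its probes the identity of that signal is uncertain. PLOD3, a lysyl hydroxylase that modifies collagen, had 9.98, 10.18 and 10.11 against 9.48, 9.22 and 9.34. ARPC1B, a subunit of the Arp2/3 complex that branches actin, had 10.44, 10.79 and 10.71 against 9.87, 10.02 and 10.08. Their differences were 0.74 (SE 0.17) and 0.66 (SE 0.16), and in both genes the groups did not overlap.

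CYREN, a regulator of end joining of DNA breaks, differed by 0.65 (SE 0.12), LAMTOR4, a lysosomal scaffold subunit that serves mTORC1, by 0.62 (SE 0.14), BCAP29, an endoplasmic reticulum membrane protein, by 0.59 (SE 0.10), and ATP5MF, a subunit of the mitochondrial ATP synthase, by 0.59 (SE 0.12). In ATP5MF clone 88-1 was lowest at 9.21, with 9.62 and 9.66 in the other corrected clones and 10.04 to 10.12 in deficient arrays. The remaining members past the threshold had differences of 0.57 or less. Among them were FIS1 (0.57), needed for mitochondrial fission, SLC35B4 (0.57), a nucleotide sugar transporter, NSUN5 (0.56), a methyltransferase of ribosomal RNA, BUD31 (0.54), a splicing factor, and LRWD1 (0.52), which binds the origin recognition complex.

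No member was lower in H4 deficient cells past the threshold. The largest differences below 0 were CPED1 at -0.89 (SE 0.29) and PODXL, a sialomucin of the cell surface, at -0.74 (SE 0.24). PODXL had 7.47, 6.32 and 6.87 in deficient and 7.60, 7.49 and 7.77 in corrected arrays, with the parental line close to the corrected clones. Without the parental line PODXL passed the threshold at -1.03, and without clone 10 CPED1 did at -1.19. CPED1 is named here after its values were seen.

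By role, the H4 difference was spread over unrelated groups of members. The lists below were chosen with earlier results known, and their medians are read against 0.19 over all members and 0.02 over all genes. Their counts are read against 86.3% of members and 54.4% of all genes above 0. Higher past the threshold were 9.07% of members and 1.30% of all genes. In the Williams-Beuren region 19 of 23 tested genes were above 0 with a median of 0.18, and 4 were past the threshold: LIMK1 at 0.53, the ribosomal RNA methyltransferase NSUN5 at 0.56, BCL7B, a SWI/SNF subunit, at 0.45, and BUD23, another ribosomal RNA methyltransferase, at 0.48. LIMK1 had 9.47, 9.78 and 9.62 in deficient and 9.12, 9.0 and 9.14 in corrected arrays. BAZ1B and EIF4H of the same region, a chromatin remodelling subunit and a translation factor, had 0.13 and 0.22 without passing, and ELN, which encodes elastin, had -0.06.

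Genes for membranes and mitochondria had the largest list medians. The lists were not matched for level, and members in the high tertile of level had a median of 0.29 with 95.7% above 0. All 18 tested genes of vesicle transport and the endoplasmic reticulum were above 0, with a median of 0.35 and 3 past the threshold, PLOD3, BCAP29 and ATP6V1F, a subunit of the proton pump of vesicles, at 0.53. All 15 mitochondrial genes were above 0, with a median of 0.30 and 2 past the threshold, ATP5MF and FASTK, an RNA-binding protein, at 0.46. MRPS33, a protein of the mitochondrial ribosome, stood at 0.60 without passing. The 10 ubiquitin and proteasome genes were all above 0 with a median of 0.22, and TRIM4, a ubiquitin ligase, was past the threshold at 0.48. CUL1, the scaffold of SCF ligases, stood at 0.24 and the ligase UBE3C at 0.27. Of 15 genes under cell division and DNA repair all were above 0 with a median of 0.20, and RINT1, which tethers Golgi vesicles and binds RAD50, was past it at 0.54. CDK5, a kinase of neurons, at 0.51 and ORC5, a subunit of the origin recognition complex, at 0.48 did not pass. That list also holds LMTK2, TSC22D4 and RBM28, whose roles lie elsewhere.

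Of 19 tested chromatin and transcription regulators 13 were above 0 with a median of 0.07, and MEPCE, which caps the 7SK RNA, was the 1 past the threshold at 0.54. KMT2C, a histone methyltransferase, stood at 0.23, SMARCD3, a SWI/SNF subunit, at 0.17 and CREB3L2, a transcription factor, at 0.15 without passing. EZH2, the catalytic subunit of Polycomb repressive complex 2, stood at -0.02 and TRRAP, a scaffold of histone acetyltransferases, at 0.0076, both named after their values were seen. Of 28 ligands, receptors and signal transducers 23 were above 0 with a median of 0.10, and SEMA3D and GNB2, a G protein beta subunit, were past the threshold, GNB2 at 0.39. GNAI1, a G protein alpha subunit, stood at 0.33 and PRKAG2, a subunit of AMP-activated kinase, at -0.37 without passing. The median of this list was 0.048 without clone 88-1, 0.0503 without the parental line and 0.183 without clone 12. Of 22 zinc finger genes 21 were above 0 with a median of 0.18, and the smallest p was that of ZNF800 at 0.38, short of the threshold, with ZNF3 at 0.29 and ZNF655 at 0.26. The actin, adhesion and matrix list had 12 of 15 above 0, a median of 0.17 and ARPC1B past the threshold, while CADPS2, which primes dense-core vesicles, stood at 0.60 and ARPC1A, another Arp2/3 subunit, at 0.32 without passing.

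The 9 genes of drug and oxidant metabolism had 6 above 0 and a median of 0.17, which was -0.12 without clone 10. Among them STEAP2, a metalloreductase, stood at 0.48, PON2, a paraoxonase, at 0.40, AOC1, a diamine oxidase, at 0.22 and NOS3, the endothelial nitric oxide synthase, at -0.16, and none passed. Of 34 tissue-restricted receptor and enzyme genes only 4 were bright enough to test, with 2 above 0. MUC12, a membrane mucin, stood at 0.35, GIMAP2, a GTPase of lymphocytes, at -0.19 and TAS2R41, a bitter taste receptor, at -0.0072.

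In 42MGBA, no member passed the threshold in either direction, as was so for all 12978 genes. The median difference over the members was -0.0044, against -0.03 over all genes, and 178 of 364 members (48.9%) were above 0 against 39.7% of all genes. By limma at an adjusted p under 0.05, 0 members were called, where 0% of all genes were. At an unadjusted p under 0.05, 5 members were higher (1.37%, with 1.05% of all genes) and 10 lower (2.75%, with 2.90%). STAG2 did not separate these arrays, so a direction here follows the labels only.

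The 42MGBA members with the smallest p among higher ones included FAM180A, with 6.89, 6.72 and 5.87 on arrays labelled deficient and 5.74, 5.22 and 5.83 on those labelled corrected. Its difference was 0.90 (SE 0.26, 95% interval 0.33 to 1.46) with an adjusted p of 1.00 by limma, and clone 92 stood close to the corrected arrays. CEP41, a centriolar protein, and AUTS2, a neurodevelopmental regulator, both differed by 0.29, and TRIM24, a reader of histone marks, and MDFIC by 0.22 each. On the other side were DTX2, a ubiquitin ligase of the Notch pathway, at -0.40, ZP3, a glycoprotein of the egg coat, at -0.44, and BAIAP2L1, which links membranes to actin, at -0.42, the zinc finger gene ZNF394 at -0.34 and BPGM, which makes bisphosphoglycerate in red cells, at -0.24. None of these was past the threshold. In the Williams-Beuren region 5 of 23 genes were above 0, where 48.9% of members and 39.7% of all genes were. The region had a median of -0.10, and LIMK1 stood at -0.21.

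Within 42MGBA, single clones differed along the arm by more than the groups did. Clone 53-7 minus clone 92-6, a pair picked after the array medians were seen, gave a median of 0.17 over the members with 273 of 364 (75%) above 0. The short arm gave -0.02 for the same pair and all genes 0.0085, while other chromosomes ranged from -0.11 on chromosome 14 to 0.18 on chromosome 10. By block, the pair differed by 0.04 in the first and the second block from the centromere, by 0.42 from NAPEPLD to CTTNBP2 and by 0.14 to 0.28 in the other 7. Clone 53-7 minus 53-1, which share a parent clone, gave 0.10, with 0.03 over all genes. Each of these clones is 1 array, so the differences have no replicate check.

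In HCT116, 0 members passed the threshold, where limma at an adjusted p under 0.05 called 0.0771% of all genes higher and 0.0539% lower in knockout clones. The median difference, knockout minus wild-type, was -0.0136 over the members and -0.0139 over all genes, and 46.4% of members and 46.6% of all genes were above 0. At an unadjusted p under 0.05, 9 members (2.47%) were higher, with 3.75% of all genes, and 13 (3.57%) lower, with 4.08%. With 2 arrays a group, the arrays did not overlap, with the knockout higher, for 59 members (16.2%, with 18.5% of all genes), and with the knockout lower for 80 (22%, with 22.1%). These shares were near those of all genes.

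CDK14, a cyclin-dependent kinase of Wnt signalling, had the smallest p, with 7.60 and 7.81 in knockout and 7.10 and 7.09 in wild-type clones. Its difference was 0.61 (SE 0.12, 95% interval 0.34 to 0.87) with an adjusted p of 0.109 by limma. LAMB1, the laminin beta-1 chain, had 8.60 and 9.02 against 7.89 and 7.97, a difference of 0.88 (SE 0.23) with an adjusted p of 0.244 by limma. For both genes the groups did not overlap, and neither passed the threshold. FZD1, a Wnt receptor, differed by 0.39, AASS, an enzyme of lysine breakdown, by 0.52 and EPHA1, an ephrin receptor, by 0.36. Lower values were found for STEAP1, a metalloreductase family protein, at -0.71, CALN1 at -0.44, and SLC12A9 and the mitochondrial carrier SLC25A13 at -0.40 each.

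In some members clone 21 stood apart from the 3 other HCT116 arrays. WNT16, a secreted Wnt ligand, was at 9.61 and 9.80 in wild-type clones and 10.12 in knockout clone 7, and at 7.02 in knockout clone 21. CPA4, a carboxypeptidase, had 9.66, 10.08 and 10.26 on the same arrays and 7.91 in clone 21. Without clone 7, WNT16 (-2.69) and SBDS, a ribosome assembly factor (-0.88), were lower past the threshold, with the lone clone 21 assumed to vary like the other groups. SBDS is named after its values were seen.

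The differences were then compared between lines in the same fit, an analysis added after seeing the data. H4 minus HCT116 had a median of 0.20 over the members and 0.04 over all genes, with 76.9% and 55.6% above 0, and H4 minus 42MGBA had medians of 0.20 and 0.04, with 79.9% and 58.9% above 0. Both draw on the H4 values that chose the chromosome, so they are a description too. The H4 and 42MGBA contrasts are also unlike in design. No H4 deficient array was a recombinant clone, while the 42MGBA deficient clones 53 and 92 already held the knock-in. In the first, 1 member was higher past the threshold, SEMA3D at 1.91 (SE 0.36), where 0.116% of all genes were. In the second it was LIMK1 alone, at 0.75 (SE 0.13), where 0.100% were. SEMA3D itself differed by 1.80 in H4, -0.11 in HCT116 and 0.20 in 42MGBA, and LIMK1 by 0.53, -0.05 and -0.21. SEMA3D lay at 4.60 to 4.75 on the HCT116 arrays, near the lower quartile of all rows, so that a difference could hardly be measured there, and the 42MGBA groups of LIMK1 follow the labels only. The SEMA3D call was lost without any 1 of the 3 corrected H4 clones, either HCT116 wild-type clone or knockout clone 21, and the LIMK1 call without H4 clone 12, any corrected H4 clone, any deficient 42MGBA array, or clone 53-7 or 92-6, with differences of 1.87 to 1.97 and of 0.68 to 0.79 in those fits. With the parent clone as a block in 42MGBA the LIMK1 difference was 0.70 and short of the threshold, at an adjusted p of 0.109 by limma. HCT116 minus 42MGBA gave 0 members by limma, where 0.0154% of all genes were higher and 0.00771% lower. At an unadjusted p under 0.05 there were 5 higher members (1.37%, with 3.11% of all genes) and 6 lower (1.65%, with 1.74%).

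Levels were also set between H4 and HCT116, whose array medians were alike, once with STAG2 present and once without it. Each comparison shares its H4 arrays with the H4 contrast above and differs by cell line, so line and tissue cannot be told apart. In H4 corrected against HCT116 wild-type cells, 95 members (26.1%) were higher, where 23.7% of all genes were, and 81 (22.3%) were lower, where 29.0% were. The lower count was 50 without HCT116 clone 24. The median was -0.03 over the members and -0.07 over all genes. On the short arm 130 of 215 genes (60.5%) were higher and the median was 0.49. In H4 deficient against HCT116 knockout cells, 127 members (34.9%) were higher, where 23.2% of all genes were, and 34 (9.34%) were lower, where 24.8% were, and the median was 0.17 against -0.03. The short arm had 146 genes (67.9%) higher and a median of 0.63. All these counts include genes bright in only H4 or only HCT116, for which the filter made a call likely beforehand.

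**Figure D4:**
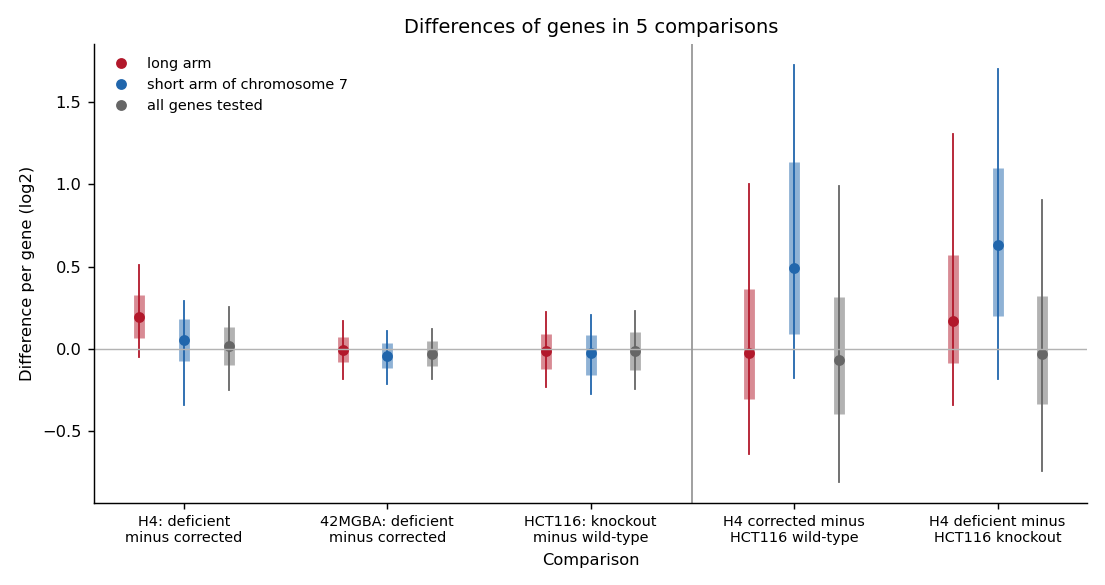
Difference per gene, in log2 units, in 5 comparisons for members on the long arm, genes of the short arm and all tested genes. Points are medians, thick bars run from the lower to the upper quartile and thin lines from the 10th to the 90th percentile. The long arm stands at 0.19 in H4 and at -0.0044 and -0.0136 in 42MGBA and HCT116, and the short arm at 0.49 and 0.63 in H4 against HCT116.

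The stretch from METTL27 to LMTK2, the second and the third block, stood highest in H4 against HCT116 whether STAG2 was present or not. Its block medians were 0.31 and 0.47 with STAG2 and 0.51 and 0.52 without. With STAG2, 19 and 21 of the 37 members in each were higher past the threshold, and without it 21 in each. These counts include members such as SEMA3D, which exceeded the array median on H4 arrays only. For such members the filter made a call likely beforehand, so nothing is read from the counts. With STAG2, 23.7% of all genes and 60.5% of the short arm were higher, and without it 23.2% and 67.9%. The other 8 blocks had medians from -0.15 to 0.09 with STAG2 and from -0.06 to 0.27 without.

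**Figure D5:**
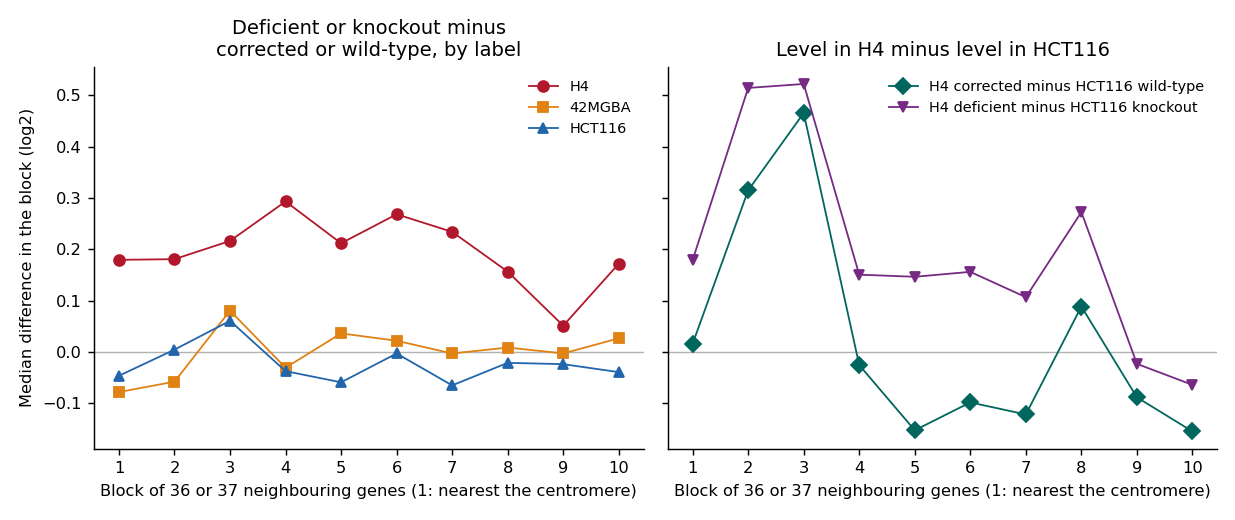
Median difference, in log2 units, in 10 blocks of 36 or 37 neighbouring members from the centromere outwards. Left, deficient or knockout minus corrected or wild-type by label in the 3 lines, where H4 lies between 0.05 and 0.29 and the other lines between -0.08 and 0.08; right, the level in H4 minus the level in HCT116, with and without STAG2, where the second and the third block stand highest.

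Some members were bright in H4 and at the low end of the scale in HCT116. AKR1B10, an aldo-keto reductase, lay at 9.48 to 10.89 on the H4 arrays and 3.98 to 4.28 on the HCT116 arrays. HGF, a growth factor, lay at 8.94 to 10.59 and 3.97 to 4.31, and CROT, a peroxisomal carnitine transferase, at 8.99 to 10.36 and 4.04 to 4.28. On the HCT116 arrays these 3 genes were below the lower quartile of all rows, and they were tested only because they were bright elsewhere. Their fitted differences of 5.79, 5.77 and 5.01 with STAG2 and 6.10, 5.53 and 5.54 without it therefore measure the distance to the low end of the scale and not a level in HCT116. CACNA2D1, an auxiliary calcium channel subunit (4.56 and 5.0), and SEMA3D (3.39 and 5.30) lay close to that quartile in HCT116. Both exceeded the array median on H4 arrays only, so the same limit holds for their differences. PCOLCE, which enhances procollagen cleavage, was 4.75 higher with STAG2 and 4.66 without, at 11.24 to 11.50 on the H4 arrays and 6.58 to 6.81 on the HCT116 arrays. Higher in HCT116 were CLDN4, a tight junction protein of epithelia, at -2.82 and -2.68, WNT16 at -3.83 and -2.68, PPP1R9A, a neurabin that binds actin and lay at 4.29 to 4.78 in H4, at -1.62 and -1.86, FAM3C at -1.87 and -0.67, NSUN5 at -1.55 and -0.89, PODXL at -0.95 and -2.25 and EPHA1 at -1.10 and -1.41. All of these passed the threshold in both comparisons. For genes at the low end of the scale in either line and tested through the other, the filter made this likely beforehand, and nothing is read from it. The WNT16 difference without STAG2 was -1.13 without knockout clone 7 and -4.24 without clone 21.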

How the data were processed

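RNA of 16 cultures was hybridised to 1 array each. The authors' deposited values are log2 expression made with RMA in Affymetrix Expression Console, per the submitters' processing notes; whether the lines were normalised together is not given in the sources used here. The series matrix held 33297 rows, and the platform annotation gave 1 gene to 19460, several to 1754 and none to 12083. Symbols of 19429 rows were updated through RefSeq GRCh38.p14 by Entrez number, and 31 were kept. For the 769 genes with several rows the row with the highest mean was used. Genes were kept for testing when their row exceeded the all-row median on 2 arrays or more.

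The moderated linear models of limma 3.58.1 (R 4.3.3) were applied to the log2 values of 12978 genes. A single model of 6 groups took all 16 arrays. Two-sided p-values were adjusted by Benjamini-Hochberg over the whole gene set of each contrast, with a threshold of 0.05. Tested on simulated data for the H4 contrast over 12978 genes, the fit recovered 93 of 100 genes changed by 1 log2 unit and 99 of 100 changed by 2, with 11 false calls; smaller changes were not simulated. The members and the gene lists were chosen with earlier results of these data known. Named genes were, in H4, the 10 largest differences in each direction past the threshold without overlap of the groups, in each other comparison up to 5 in each direction past the threshold, filled up by the smallest p, and from each list up to 4 with the smallest p in H4, besides the ends of the highest and the lowest block and STAG2. Genes so named that the text does not mention are not reported here. Alternatives were the filter, normalisation, choice of row, variance model, arrays in the fit, averaging of clones, the parent clone as a block in 42MGBA, and leaving out each array. Rows with several genes and the genes set aside by the rule were not used. The array annotation names no build for its positions, so genes were placed by RefSeq.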

Additional observations from a re-analysis of the deposited data

Results flagged for a closer look

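In 2 members the difference between the labelled groups of 1 line minus that of another passed the threshold by limma on the 16 arrays. Both values draw on the H4 contrast that pointed to the chromosome and are a description. SEMA3D, the secreted semaphorin, differed by 1.80 in H4 and by -0.11 in HCT116, 1.91 apart (SE 0.36, 95% interval 1.13 to 2.68). All 3 H4 deficient arrays were above all 3 corrected arrays, while the 4 HCT116 arrays lay between 4.60 and 4.75, close to the lower quartile of all rows on those arrays, where a difference could hardly be measured. LIMK1, the cofilin kinase, differed by 0.53 in H4 and by -0.21 in 42MGBA, 0.75 (SE 0.13, 95% interval 0.46 to 1.03) apart. On the 42MGBA arrays LIMK1 stood at 7.28, 7.44 and 7.32 where labelled deficient and at 7.48, 7.69 and 7.50 where labelled corrected, and the groups did not overlap in either line. STAG2 did not separate the 42MGBA arrays, so that side follows the labels only, and with the parent clone as a block there the value was 0.70, short of the threshold. The adjusted p by limma was 0.0391 for SEMA3D and 0.00111 to 0.163 over 19 alternatives, short of the threshold in 9, and 0.0318 for LIMK1 and 0.0101 to 0.125 over 23 alternatives, short of it in 13.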

How the results depend on the processing

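The H4 median of 0.19 was above 0 under every alternative run and was 0.12 when dim genes were tested too. The count of 33 higher members in H4 was 3 with only the H4 arrays in the fit, 12 with clones of 1 parent clone averaged, and 8 to 42 with 1 H4 array left out. Lower members numbered 1 without the parental arrays, 1 with the 20 genes put back and 0 to 1 with 1 array left out. Among list medians in H4, the ubiquitin list was 0.145 with no filter, the signalling list 0.142 with a filter on the mean level and 0.0503 without parental arrays, the cell division list 0.157 without parental arrays, and the actin list 0.218 with clones averaged. Leaving out 1 array gave 0.148 to 0.212 for cell division, 0.048 to 0.183 for signalling, 0.251 to 0.345 for mitochondrial genes, -0.119 to 0.248 for drug and oxidant metabolism, 0.168 to 0.266 for actin and -0.114 to 0.315 for tissue-restricted genes. TAS2R41, a bitter taste receptor at -0.0072 in H4, was 0.0117 after centring outside chromosome 7, 0.0219 after quantile normalisation, 0.0064 with clones averaged, 0.0132 without parental arrays and -0.0346 to 0.0257 with 1 array left out. CPA4, at 0.33 in H4, was -0.19 without clone 88-1, in a range of -0.19 to 0.92. Neither gene was past the threshold in any of these.

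Per-array medians in H4 with no filter were 0.0616 in clone 10, -0.0714 in clone 8-1, -0.065 in clone 8-3 and -0.0706 in clone 88-1. Centred outside chromosome 7, clone 8-1 was at -0.0994 and clone 88-1 at -0.129, and after quantile normalisation clone 88-1 was at -0.1035. With no filter, centred and quantile normalised, HCT116 clone 27 was at 0.001, 0.0148 and -0.0003, clone 7 at -0.0082, -0.0079 and 0.0039, and clone 21 at 0.0001, -0.0018 and 0.01. The HCT116 median was -0.0064 with no filter, 0.0022 after quantile normalisation and -0.0317 to -0.0052 with 1 array left out, when 0 to 2 members were lower past the threshold. H4 corrected against HCT116 wild-type gave medians of -0.0533 with no filter, -0.0512 after centring, -0.0145 with clones averaged and -0.0419 to -0.0117 with 1 array left out, when lower members numbered 50 to 79. H4 deficient against HCT116 knockout gave 0.0806 with no filter, with 53 lower members, 0.135 after quantile normalisation, 0.198 without parental arrays, and 0.151 to 0.198 with 1 array left out.

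For the H4 contrast minus the HCT116 contrast, the count of higher members was 0 with a filter on the mean level, after quantile normalisation, with only these lines in the fit and with clones averaged, 3 without parental arrays and 0 to 6 with 1 array left out, when lower members numbered 0 to 1. For H4 minus 42MGBA it was 3 after centring, 0 after quantile normalisation, with only these lines and with clones averaged, 5 without parental arrays and 0 to 5 with 1 array left out. HCT116 minus 42MGBA gave 0 to 1 lower members, WNT16 without HCT116 clone 7. The cause of these movements was not tested, beyond the smaller number of samples or the larger number of dim genes that a setting leaves by its construction.

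With the parent clone as a replicate block in 42MGBA, which pairs 53 with 53-1 and 53-7 and 92 with 92-6 by their names and leaves out the parental array, the 42MGBA median was 0.0228 with 0 members past the threshold in either direction. H4 minus 42MGBA then had 0 higher members in place of 1, and HCT116 minus 42MGBA again 0. No paired analysis was possible in H4 and HCT116 because their groups share no parent clone. The other 523 comparison values kept their direction or stayed within the spread between arrays. Of the values of single genes, 1332 kept direction and side of the threshold, 117 no longer passed it and 9 newly passed it. Signal over background limits the 172 dim members, and the number of arrays limits every call.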
